A study of Mus musculus with 6 samples.

Results

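Steady-state lung fibroblasts of untreated mice were compared with homogenates of whole untreated lung. The fibroblasts were sorted by flow cytometry as CD140a+Lin- cells, that is, cells that carry PDGF receptor alpha (CD140a, the product of Pdgfra) on their surface and lack the lineage markers (Lin) of other cells. Of the 6 arrays in the series, 4 made up the comparison: 2 of fibroblasts and 2 of homogenates, taken by their labels. The other 2 arrays, of CD49e+Sca1-Lin- myofibroblasts from bleomycin-treated lung, entered the statistical fit only through the shared estimate of the spread between replicates. They also counted in the choice of each gene's brightest probe. All samples are labelled male, and the strain, the age and the antibodies of the lineage gate are not given in the sources used here. The design text gives each group as 2 sets of 50000 cells, and total RNA was labelled with Cy3 from 5.8 ng per sample. Nothing in the labels says that the sets came from separate animals, so the p-values reflect how far these samples differ from each other, which can be technical variation.

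Fibroblasts are the connective tissue cells of the lung: they lay down the collagens, proteoglycans and elastic fibres that hold the airspaces open, and they send growth factors to the epithelium that lines them. PDGF receptor alpha is a tyrosine kinase receptor for platelet-derived growth factor and marks most resting fibroblasts of the lung, among them the alveolar fibroblasts (including lipid-storing lipofibroblasts) and the adventitial fibroblasts around vessels and airways. A homogenate holds these cells too, together with epithelium, endothelium, leukocytes, red blood cells, smooth muscle and mesothelium. A gene that is read as higher in the fibroblasts was therefore set against a mixture that contains fibroblasts, and in bulk RNA fewer cells of a type and less RNA per cell cannot be told apart.

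Promoter sequences are shown for 3 genes that carry the comparison: Pdgfra as the gene of the sort marker, Col1a2 as a collagen gene, and Dner as the gene with the largest rise among genes read well above background on all 4 arrays. Each is the run of 250 bases before the transcription start in the RefSeq annotation of GRCm38.p6, written 5′ to 3′ in the direction of the gene, at chr5:75152001-75152250 on the plus strand for Pdgfra, chr6:4505368-4505617 on the plus strand for Col1a2 and chr1:84696222-84696471 on the minus strand for Dner. Capitals mark a CCAAT box, which the search found in Col1a2 at 109 bases before the start.
Pdgfra: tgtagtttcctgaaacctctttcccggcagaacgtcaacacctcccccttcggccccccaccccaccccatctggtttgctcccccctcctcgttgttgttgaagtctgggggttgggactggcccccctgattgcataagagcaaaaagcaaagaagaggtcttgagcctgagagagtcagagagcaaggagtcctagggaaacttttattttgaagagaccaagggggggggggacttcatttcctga
Col1a2: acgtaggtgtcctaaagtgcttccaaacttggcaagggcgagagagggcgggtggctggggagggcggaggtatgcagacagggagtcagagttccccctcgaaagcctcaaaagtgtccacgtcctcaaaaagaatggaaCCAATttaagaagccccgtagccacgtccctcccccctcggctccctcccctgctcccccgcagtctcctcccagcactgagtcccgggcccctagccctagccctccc
Dner: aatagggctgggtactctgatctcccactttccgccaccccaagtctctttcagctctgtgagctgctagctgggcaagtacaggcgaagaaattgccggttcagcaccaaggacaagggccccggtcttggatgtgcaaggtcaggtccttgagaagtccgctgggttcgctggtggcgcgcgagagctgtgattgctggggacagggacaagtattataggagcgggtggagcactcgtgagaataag

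The search covered 3 motifs on both strands of the same window. The first was the CCAAT box, which was present before 34.4% of the 1049 genes called higher whose promoter was in the table, 34% of the 1569 called lower and 35.6% of the 13478 tested. The second was TATAAA, the element of TATA-binding protein, which was present before 10.4%, 11.6% and 9.22% of the same genes. The third was the AP-1 site of the Fos and Jun family, searched as TGANTCA, which was present before 5.62%, 7.39% and 5.36%. The shares in the genes called higher lay close to those of all genes tested for each of the 3 motifs.

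Each array carried 59305 spots that were not controls, none was saturated, and 66.2% to 73.4% of them were well above background. Values are given as relative signal, a probe's brightness divided by the 75th percentile of its array, and each gene is read through its brightest probe, so that levels of different genes are not comparable. The 2 homogenate arrays lay closer together than the 2 fibroblast arrays. The log2 difference within the pair had a standard deviation over genes of 0.39 for homogenates and 0.88 for fibroblasts. It exceeded 2-fold for 2.83% and 23.5% of the genes. Each pair was read over the genes well above background on both its arrays. Fibroblasts were hybridised in slide row 1 and homogenates in row 2, so slide row and group cannot be told apart.

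The homogenate libraries went against their male label. Xist, the RNA that coats the inactive X chromosome of female cells, read 0.0364 and 0.119 in the fibroblasts and 26.7 and 24.9 in the homogenates, a log2 difference of -8.61 ± 0.66 (adjusted p = 0.000854). Of the Y-linked genes 4 went the other way: Ddx3y, an RNA helicase, read 3.44 and 1.48 in fibroblasts against 0.00933 and 0.00831 in homogenates, and Kdm5d, a histone demethylase, read 1.96 and 1.07 in fibroblasts against 0.0123 and 0.00746 in homogenates. The homogenate values of both lay below the level of probes well above background, which made Ddx3y at least 57.9-fold and Kdm5d at least 37.2-fold higher in fibroblasts. Eif2s3y, a translation factor subunit, read 1.98 and 1.67 in fibroblasts against 0.109 and 0.119 in homogenates, and Uty read 0.405 and 0.319 in fibroblasts against 0.0197 and 0.0232 in homogenates, the latter not well above background in homogenates. Of 7 Y-linked genes tested 4 were called higher and none lower. Of the 3 without a call, Sly read 0.867 and 0.701 in fibroblasts against 1.13 and 1.05 in homogenates and Sry read 0.167 and 0.19 in fibroblasts against 0.334 and 0.456 in homogenates, both below the homogenates (adjusted p = 0.241 and adjusted p = 0.0890), and Gm20877 read 0.102 and 0.227 in fibroblasts against 0.0498 and 0.0712 in homogenates (adjusted p = 0.143). Of 566 X-linked genes tested 69 were higher and 59 lower, to be read beside 8.19% higher and 11.9% lower among all genes tested. Sex and group cannot be told apart for genes that differ between male and female lung, and leaving out all X-linked and Y-linked genes left 1320 genes called higher and 1967 called lower. Xist differed by -7.76 or -9.47 without fibroblast replicate 1 or 2.

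The sort itself was read through its own marker. Pdgfra read 73.5 and 35.1 in fibroblasts against 7.45 and 7.16 in homogenates, and both fibroblast values lay above both homogenate values, a log2 difference of 2.8 ± 0.39, with adjusted p = 0.00624 from limma, a linear model fitted across all genes with Benjamini-Hochberg adjustment. Ly6a, which encodes the Sca1 antigen used in the gate of the myofibroblasts, read 12 and 19.2 in fibroblasts against 24.1 and 21.6 in homogenates and was not called (adjusted p = 0.266), and Itga5, which encodes CD49e, read 0.316 and 0.228 in fibroblasts against 0.369 and 0.241 in homogenates with ranges that nearly coincided (adjusted p = 0.804). The call of Pdgfra ended without homogenate replicate 2, where the log2 difference was 2.77.

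Of 22909 genes with a named probe, 17063 were tested, each with its probe well above background on the full pair of arrays of at least 1 group. At an adjusted p under 0.05, 3425 genes (20.1%) were called: 1398 (8.19%) were higher in fibroblasts and 2027 (11.9%) were lower. The median log2 difference over all genes tested was 0.03. The values of the 2 groups did not overlap for 10707 of the 17063 genes, so a lack of overlap in a single gene was common. On the fitted scale 680 genes were called lower by more than 16-fold and 54 were called higher by as much. These 2 counts do not compare depletion with enrichment on equal terms. The homogenate also holds fibroblasts, and the fitted folds include values not well above background. Where a group was not well above background on either of its arrays only a bound can be given, brighter group over the lowest level detected in the other, and this held for 107 genes called higher and 873 called lower. Such a gene was tested because of the group in which it was bright and could differ only in that direction, so the counts over gene lists given here are descriptions and are read beside 8.19% and 11.9%. Without homogenate replicate 1 the counts were 435 higher and 1089 lower, without homogenate replicate 2 they were 381 and 1065, and without fibroblast replicate 2 they were 3193 and 3047.

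Several secreted or cell-surface products were among the genes that rose most on all 4 arrays. Dner, a membrane ligand of the Notch pathway best known from neurons, read 13.1 and 6.16 in fibroblasts against 0.157 and 0.185 in homogenates, a log2 difference of 5.72 ± 0.55 (adjusted p = 0.00174). Vit, which encodes the matrix protein vitrin, read 4.45 and 3.23 in fibroblasts against 0.133 and 0.104 in homogenates (5.01 ± 0.29, adjusted p = 0.000371). Penk, the precursor of the enkephalin opioid peptides, read 21.6 and 15.1 in fibroblasts against 0.642 and 0.524 in homogenates (4.96 ± 0.30, adjusted p = 0.000430). In each of these the lowest fibroblast value was many times the highest homogenate value. Scara5, a scavenger receptor for ferritin, Dio2, the deiodinase that activates thyroid hormone, and Apod, the lipid carrier apolipoprotein D, differed by 4.94, 4.7 and 4.44, and also passed the test. Itgbl1, an integrin beta-like secreted protein, and Smoc2, a calcium-binding matrix protein, read 12.7 and 6.79 in fibroblasts against 0.383 and 0.404 in homogenates and 8.79 and 3.53 in fibroblasts against 0.221 and 0.22 in homogenates.

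Some genes were read in the fibroblasts and were not well above background in either homogenate. They were tested because of the fibroblast arrays and could only be read as higher. Sult1e1, the sulfotransferase that inactivates estrogen, read 1.76 and 1.42 in fibroblasts against 0.00897 and 0.0123 in homogenates and was at least 40.5-fold higher in fibroblasts. Lamc3, a laminin gamma chain, was at least 21.5-fold higher, and Itga11, the alpha 11 subunit of a collagen-binding integrin, at least 21-fold higher. Foxd1, a forkhead factor of stromal progenitors in other organs, read 0.776 and 0.408 in fibroblasts against 0.00982 and 0.00863 in homogenates, at least 14.4-fold higher. Cilp, a secreted protein of cartilage and other connective tissue, read 0.562 and 0.412 in fibroblasts against 0.0197 and 0.0178 in homogenates, at least 12.3-fold higher. These 5 genes were among the 10 largest bounded rises, which Ddx3y, Sult1e1 and Kdm5d led. Itga11 also lost its call with array weights.

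Interstitial collagen genes were called higher or not called. Of 22 interstitial collagen genes listed, 21 were tested and 12 were called higher and none lower, with a median log2 difference of 2.46. Col1a1, the alpha 1 chain of type I collagen, read 86.7 and 38 in fibroblasts against 3.13 and 2.77 in homogenates, a difference of 4.29 ± 0.43 (adjusted p = 0.00195). Col1a2, its partner chain, read 194 and 160.2 in fibroblasts against 19 and 16.9 in homogenates (3.3 ± 0.25, adjusted p = 0.000790), and Col3a1, the chain of type III collagen, read 73.4 and 50.1 in fibroblasts against 6.12 and 6.02 in homogenates (3.32 ± 0.28, adjusted p = 0.00116). For all 3 chains the groups were far apart. The type V chain Col5a1 and the type VI chains Col6a1 and Col6a3 differed by 3.74, 2.88 and 3.5, and the membrane collagen Col13a1 by 2.56, all called. Col8a1 read 0.127 and 0.203 in fibroblasts against 0.18 and 0.243 in homogenates and Col14a1, a marker of adventitial fibroblasts, read 0.104 and 0.413 in fibroblasts against 0.0396 and 0.067 in homogenates, and neither was called (adjusted p = 0.524 and adjusted p = 0.104). A second probe of Col6a3 and one of Col13a1 differed by 1.97 and 1.95 without being called. The call of Col13a1 ended without homogenate replicate 1 or 2 (largest adjusted p = 0.0636). Col1a1 differed by 3.69 or 4.88 and Col5a1 by 3.16 or 4.33 without fibroblast replicate 1 or 2.

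Small leucine-rich proteoglycans bind collagen fibrils and set their spacing. Of 13 listed, 12 were tested, 8 were called higher and none lower, with a median difference of 2.60. Dcn (decorin) read 101 and 109.7 in fibroblasts against 5.32 and 5.3 in homogenates, a difference of 4.31 ± 0.23 (adjusted p = 0.000310), and its 2 arrays lay close together in each group. Lum (lumican) read 7.92 and 5.83 in fibroblasts against 0.273 and 0.266 in homogenates (4.66 ± 0.26, adjusted p = 0.000358). Bgn (biglycan) read 85.8 and 95.5 in fibroblasts against 19 and 17.2 in homogenates (2.32 ± 0.24, adjusted p = 0.00217), so that a gene bright in whole lung still rose in the sorted cells. Ogn (osteoglycin), Omd (osteomodulin), Aspn (asporin) and Podn (podocan) differed by 2.88, 3.48, 3.03 and 3.5. The calls of Omd ended without homogenate replicate 1 or 2 or fibroblast replicate 1 or 2, and of Podn without homogenate replicate 1 or 2 (largest adjusted p = 0.178). Omd also lost its call with no filter on dim probes and with array weights. Podn differed by 2.67 or 4.33 without fibroblast replicate 1 or 2. The 8 higher proteoglycan genes became 5 without homogenate replicate 1.

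Elastic fibres are built from an elastin core, fibrillin microfibrils and the fibulins and cross-linking enzymes that join them. All 18 genes listed were tested, 14 were called higher and none lower (77.8% against 8.19% of all genes). Eln (elastin) read 130.4 and 67 in fibroblasts against 14.1 and 12.4 in homogenates, a difference of 2.82 ± 0.37 (adjusted p = 0.00503). Fbn1 (fibrillin 1) read 36.2 and 30 in fibroblasts against 3.74 and 2.9 in homogenates (3.32 ± 0.28, adjusted p = 0.00117), and Fbln1 (fibulin 1) read 84 and 53.3 in fibroblasts against 5.47 and 4.79 in homogenates (3.71 ± 0.36, adjusted p = 0.00185). All fibroblast values of these genes lay above all homogenate values. Fbln2, Fbln5 and Efemp1, further fibulins, differed by 3.77, 2.36 and 2.66. The microfibril proteins Mfap4 and Mfap5 differed by 1.82 and 3.17, and Lox, the lysyl oxidase that cross-links elastin and collagen, by 3.07. A second probe of Eln differed by 1.73 and was not called. The calls of Fbln5 and Mfap4 ended without homogenate replicate 1 or 2, and of Efemp1 and Lox without homogenate replicate 2 (largest adjusted p = 0.143). The 14 higher elastic fibre genes became 8 without homogenate replicate 1 and 6 without homogenate replicate 2. The 0 lower ones became 1 without fibroblast replicate 2.

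Basement membrane genes, many of which epithelium and endothelium also make, were called higher more often than all genes tested. All 22 listed were tested, and 10 were called higher (45.5% against 8.19% of all genes). The 2 called lower (9.09%) lay under the share of all genes, 11.9%. Lama2, the laminin alpha chain of mesenchyme and muscle, read 33.3 and 22.8 in fibroblasts against 2.98 and 2.27 in homogenates (3.41 ± 0.30, adjusted p = 0.00139), and Col15a1, a collagen at the outer face of basement membranes, read 0.401 and 0.48 in fibroblasts against 0.048 and 0.0544 in homogenates (3.1 ± 0.25, adjusted p = 0.000953). Lamb3, a laminin chain of epithelial cells, went the other way, at 0.0535 and 0.0191 in fibroblasts against 0.314 and 0.421 in homogenates (-3.51 ± 0.72, adjusted p = 0.0226), above background on 1 of the 2 fibroblast arrays. Col4a1, a chain of type IV collagen, read 8.44 and 6.37 in fibroblasts against 4.88 and 4.24 in homogenates and was not called (adjusted p = 0.138). Npnt (nephronectin), the ligand of integrin alpha 8, read 1.62 and 10.5 in fibroblasts against 2.44 and 2.23 in homogenates: 1 fibroblast array lay below both homogenates and the other far above them (adjusted p = 0.555). A second probe of Col15a1 differed by 1.12 and was not called. The call of Lamb3 ended without homogenate replicate 1 or 2 or fibroblast replicate 2 (largest adjusted p = 0.128). Lamb3 differed by -4.25 or -2.76 without fibroblast replicate 1 or 2. The 10 higher basement membrane genes became 6 without homogenate replicate 1 and 5 without homogenate replicate 2. The 2 lower basement membrane genes became 1 without homogenate replicate 1 or fibroblast replicate 2 or myofibroblast replicate 1 or 2 and 0 without homogenate replicate 2.

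Matricellular and adhesive glycoproteins were mostly higher, at 16 of 22 tested, with 2 lower. Fn1 (fibronectin) read 110.3 and 55.9 in fibroblasts against 26.6 and 25.5 in homogenates (1.59 ± 0.37, adjusted p = 0.0349). Spon2 (spondin 2), Tnxb (tenascin X) and Abi3bp differed by 4.18, 3.49 and 2.05. Sparc, a collagen-binding glycoprotein, read 29.5 and 103 in fibroblasts against 23.2 and 20.4 in homogenates on its brightest probe and was not called (adjusted p = 0.185), while another of its probes was called higher by 2.09. The 2 lower genes (9.09%), Postn and Spp1, lay under the share of all genes, 11.9%. Postn (periostin) read 0.201 and 0.0815 in fibroblasts against 2.29 and 1.88 in homogenates (-4.02 ± 0.46, adjusted p = 0.00317). Spp1 (osteopontin), which macrophages also make, read 0.00884 and 0.0102 in fibroblasts against 3.59 and 2.41 in homogenates and was at least 68.6-fold lower in fibroblasts. Dim in fibroblasts, it could only be read as lower. Second probes of Fn1 and of Tnc (tenascin C, called higher by 1.74) differed by 0.34 and 2.21 and were not called. The calls of Fn1 ended without homogenate replicate 1 or 2 or myofibroblast replicate 1 or 2, and of Abi3bp without homogenate replicate 1 or 2 or fibroblast replicate 1, and of Tnc without homogenate replicate 1 (largest adjusted p = 0.189). Fn1 also lost its call with no filter on dim probes. Abi3bp and Tnc also lost their calls with array weights. Postn differed by -4.67 or -3.37 without fibroblast replicate 1 or 2. The 16 higher matricellular genes became 10 without homogenate replicate 1 or 2.

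Enzymes that cut the matrix, and their inhibitors, were mostly higher. Of 24 proteases and inhibitors tested 16 were higher and 2 lower. Mmp2 (gelatinase A) read 6.1 and 9.52 in fibroblasts against 1.12 and 1.2 in homogenates (2.71 ± 0.30, adjusted p = 0.00291) and Mmp3 (stromelysin 1) read 24.6 and 19.2 in fibroblasts against 1.83 and 1.61 in homogenates (3.66 ± 0.30, adjusted p = 0.00105). Mmp9 (gelatinase B) and Mmp12 (macrophage elastase), enzymes of neutrophils and macrophages, were not well above background in fibroblasts and were at least 12.7-fold and 12.8-fold lower. The groups did not overlap for any of these 4 enzymes, as for 10707 of the 17063 genes tested. Mmp9 and Mmp12, dim in fibroblasts, could only be read as lower. The inhibitors Timp3 and Serping1 (the C1 inhibitor of complement) differed by 1.63 and 3.2. Serpinf1 (pigment epithelium-derived factor), of the same list, differed by 3.86 and read 122 and 247 in fibroblasts against 11.2 and 12.6 in homogenates. The calls of Mmp12 ended without homogenate replicate 1 or 2 or fibroblast replicate 1, and of Timp3 without homogenate replicate 1 or 2 (largest adjusted p = 0.111). The 16 higher protease and inhibitor genes became 9 without homogenate replicate 1 or 2. The 2 lower ones became 1 without homogenate replicate 1 or 2.

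**Figure D1:**
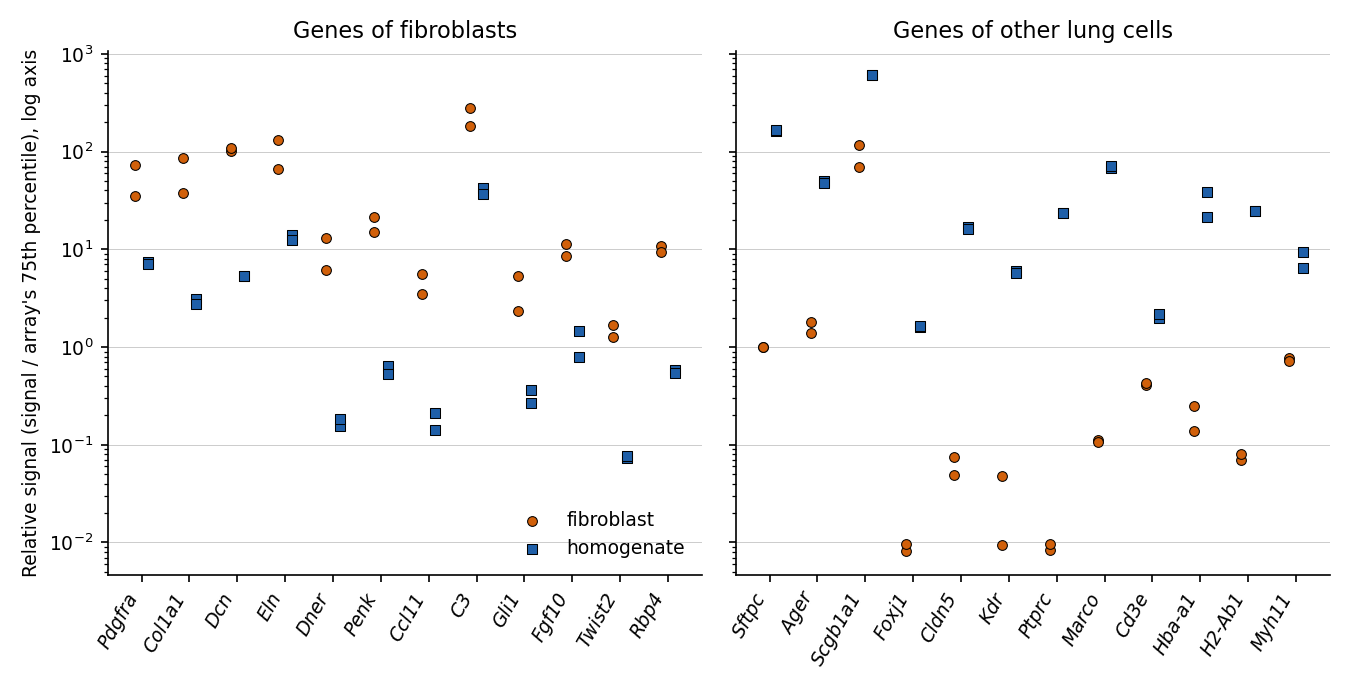
Relative signal on a log axis of 24 genes on each of the 2 fibroblast arrays (circles) and the 2 homogenate arrays (squares). The 12 fibroblast genes at left are higher on both fibroblast arrays, and the 12 genes of other lung cells at right are lower, with Scgb1a1 at 118 and 69.0 in fibroblasts and 614 and 602 in homogenates.

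Not every gene used as a fibroblast marker was higher. Of 17 sort and pan-fibroblast markers tested, 9 were called higher and 4 lower. Cd34, a sialomucin of stromal progenitors and vessels, read 55.2 and 35.9 in fibroblasts against 8.41 and 8.63 in homogenates (2.39 ± 0.31, adjusted p = 0.00502), and Cd248 (endosialin) read 27.5 and 23.3 in fibroblasts against 2.08 and 2.22 in homogenates (3.56 ± 0.24, adjusted p = 0.000566). Pdgfrb, the beta receptor for PDGF and also a pericyte marker, read 38 and 14.2 in fibroblasts against 6.64 and 4.06 in homogenates (2.16 ± 0.53, adjusted p = 0.0399), with the fibroblast arrays 2.67-fold apart. Thy1, a surface glycoprotein of T cells and of some fibroblasts, read 0.90 and 1.11 in fibroblasts against 5.26 and 5.84 in homogenates (-2.47 ± 0.25, adjusted p = 0.00204), and Cd44, the hyaluronan receptor, read 1.99 and 4.69 in fibroblasts against 22.7 and 25.6 in homogenates (-2.98 ± 0.44, adjusted p = 0.00756). Both were lower in the sorted fibroblasts than in whole lung. The other 2 genes called lower, named after their values were seen, were S100a4, a calcium-binding protein, and Eng (endoglin), a TGF-beta co-receptor of endothelium. Vim (vimentin), which leukocytes and endothelium also express, read 69.9 and 47.6 in fibroblasts against 38.9 and 36.8 in homogenates and was not called (adjusted p = 0.204). A second probe of Cd34 differed by 2.01 and was not called. The calls of Cd44 and Eng ended without homogenate replicate 1 or 2, and of Pdgfrb without homogenate replicate 1 or 2 or fibroblast replicate 1 or myofibroblast replicate 1 or 2, and of S100a4 without homogenate replicate 1 or 2 or myofibroblast replicate 1 or 2 (largest adjusted p = 0.219). Pdgfrb also lost its call with no filter on dim probes and with array weights. Pdgfrb differed by 1.45 or 2.87 and Cd44 by -2.36 or -3.60 without fibroblast replicate 1 or 2. The 4 lower markers became 1 without homogenate replicate 1 or 2.

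Markers of alveolar fibroblasts and of adventitial fibroblasts were both higher. All 16 alveolar fibroblast genes were tested, and 12 were called higher and none lower, with a median difference of 2.31. Gdf10, a BMP family ligand, read 43.6 and 27.2 in fibroblasts against 2.44 and 2.28 in homogenates (3.87 ± 0.32, adjusted p = 0.00107), Vegfd, a ligand for lymphatic growth, read 24.2 and 12.3 in fibroblasts against 2.07 and 1.81 in homogenates (3.16 ± 0.38, adjusted p = 0.00368), and Itga8, the receptor subunit for nephronectin, read 43.9 and 27.9 in fibroblasts against 6.77 and 6.61 in homogenates (2.39 ± 0.31, adjusted p = 0.00469). The homogenate pairs were tight and the fibroblast values stood above them. Inmt, a methyltransferase of the lung, differed by 1.96, Limch1 by 1.62 and Slc7a10, an amino acid transporter, by 2.45. Ces1d, a carboxylesterase, read 1.48 and 3.83 in fibroblasts against 2.68 and 3.18 in homogenates, and Scn7a, a sodium channel, read 4.45 and 4.03 in fibroblasts against 2.99 and 2.37 in homogenates, and neither was called (adjusted p = 0.758 and adjusted p = 0.210). The calls of Inmt, Limch1 and Slc7a10 ended without homogenate replicate 1 or 2 (largest adjusted p = 0.0975). The 12 higher alveolar fibroblast genes became 6 without homogenate replicate 1 and 5 without homogenate replicate 2.

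All 17 adventitial fibroblast genes were tested, and 12 were called higher and 1 lower, with a median of 2.39. Pi16, a peptidase inhibitor family member that marks adventitial stroma, read 8.78 and 9.47 in fibroblasts against 0.773 and 0.766 in homogenates (3.57 ± 0.40, adjusted p = 0.00286). Ccl11 (eotaxin), which draws eosinophils, read 5.65 and 3.48 in fibroblasts against 0.21 and 0.14 in homogenates (4.69 ± 0.37, adjusted p = 0.000945). Has1, a hyaluronan synthase, read 52.6 and 50.6 in fibroblasts against 3.54 and 3.67 in homogenates (3.84 ± 0.25, adjusted p = 0.000536). For all 3 the lowest fibroblast value was more than 10-fold the highest homogenate value. Entpd2, an ectonucleotidase, and Clec3b (tetranectin) differed by 3.86 and 1.61. The gene called lower was Dpp4, a surface peptidase of adventitial progenitors that also marks T cells and epithelium, at 0.283 and 0.0666 in fibroblasts against 2.22 and 1.97 in homogenates (-3.93 ± 0.67, adjusted p = 0.0121). The calls of Clec3b and Dpp4 ended without homogenate replicate 1 or 2 (largest adjusted p = 0.109). Dpp4 differed by -4.97 or -2.89 without fibroblast replicate 1 or 2. The 1 lower adventitial gene became 0 without homogenate replicate 1 or 2.

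Genes of lipid storage were called lower more often than higher. Of 17 lipid storage genes, all tested, 7 were called lower and 3 higher, with a median of -0.97. Pparg, the nuclear receptor of fat storage that macrophages also depend on, read 0.612 and 0.341 in fibroblasts against 5.51 and 4.37 in homogenates (-3.42 ± 0.38, adjusted p = 0.00291). Plin2 (perilipin 2), which coats lipid droplets, read 0.588 and 0.70 in fibroblasts against 2.61 and 2.5 in homogenates (-1.99 ± 0.28, adjusted p = 0.00600), and Fabp4, a fatty acid binding protein, read 0.199 and 0.279 in fibroblasts against 6.98 and 6.77 in homogenates (-4.87 ± 0.80, adjusted p = 0.0107). All 3 were lower on both fibroblast arrays. The fatty acid uptake receptor Cd36, which endothelium and macrophages carry, read 0.0603 and 0.0359 in fibroblasts against 16.7 and 15.3 in homogenates, above background on 1 fibroblast array. Pth1r, the receptor for parathyroid hormone-related protein, and Vldlr, a lipoprotein receptor, were higher, by 3.09 and 3.01, and Lpl (lipoprotein lipase) read 5.83 and 3.64 in fibroblasts against 9.38 and 8.69 in homogenates without a call (adjusted p = 0.0849) on its brightest probe, while another of its probes was called lower, at -1.39. Another probe of Plin2, at -1.42, was not called. The calls of Plin2 ended without homogenate replicate 1 or 2, and of Fabp4 without homogenate replicate 1 or 2 or fibroblast replicate 1 (largest adjusted p = 0.0648). The 7 lower lipid genes became 3 without homogenate replicate 1 or 2.

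Genes of retinoid (vitamin A) storage and metabolism were called higher more often than all genes tested. Of 22 listed, 18 were tested, and 8 were called higher (44.4% against 8.19% of all genes). The 2 called lower (11.1%) lay near the share of all genes, 11.9%. Lrat, which stores retinol as esters, read 26.1 and 14.5 in fibroblasts against 4.87 and 4.15 in homogenates (2.11 ± 0.38, adjusted p = 0.0148), and Rbp4, the plasma retinol carrier, read 10.9 and 9.4 in fibroblasts against 0.579 and 0.544 in homogenates (4.17 ± 0.25, adjusted p = 0.000421). Aldh1a3, one of the dehydrogenases that make retinoic acid, read 3.48 and 1.61 in fibroblasts against 0.131 and 0.119 in homogenates (4.24 ± 0.41, adjusted p = 0.00180), whereas its relative Aldh1a2 read 0.925 and 0.568 in fibroblasts against 0.759 and 0.804 in homogenates and was not called (adjusted p = 0.844). Adh1 and Adh7, alcohol dehydrogenases that oxidise retinol, differed by 3.15 and 3.69. Cyp26b1, which breaks retinoic acid down, was lower, at 1.22 and 0.686 in fibroblasts against 8.67 and 6.04 in homogenates (-2.99 ± 0.39, adjusted p = 0.00503). Stra6, the retinol uptake receptor, was not tested, since it was well above background on only 1 homogenate array. A second probe of Adh1 differed by 1.96 and was not called. The call of Lrat ended without homogenate replicate 1 or 2 (largest adjusted p = 0.110). The 8 higher retinoid genes became 4 without homogenate replicate 1 or 2.

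Among ligands, several growth factors that act on the epithelium were higher. Of 28 growth factor genes tested 8 were called higher and 5 lower. Fgf10, which drives outgrowth of lung epithelium, read 11.3 and 8.6 in fibroblasts against 1.46 and 0.785 in homogenates (3.21 ± 0.38, adjusted p = 0.00363), and Fgf7 (keratinocyte growth factor) read 9.7 and 5.33 in fibroblasts against 0.875 and 0.844 in homogenates (3.06 ± 0.38, adjusted p = 0.00394). Hgf (hepatocyte growth factor) and Igf1 (insulin-like growth factor 1) differed by 1.5 and 2.59, and Angpt1, the ligand that stabilises endothelium, by 2.43. The PDGF ligands were not called higher: Pdgfa read 0.795 and 0.918 in fibroblasts against 1.1 and 1.43 in homogenates without a call (adjusted p = 0.225), and Pdgfb, a product of endothelium and platelets, read 0.221 and 0.231 in fibroblasts against 1.42 and 1.3 in homogenates (-2.59 ± 0.28, adjusted p = 0.00246). Areg (amphiregulin), an EGF family ligand, was lower, at -3.86, and above background on 1 fibroblast array. Vegfa read 25.6 and 11.8 in fibroblasts against 12.4 and 11.2 in homogenates without a call (adjusted p = 0.413), and a second probe of Hgf differed by 0.69 without one. The calls of Hgf ended without homogenate replicate 1 or 2, and of Areg without homogenate replicate 1 or 2 or myofibroblast replicate 1 or 2 (largest adjusted p = 0.141). Areg also lost its call with no filter on dim probes. Areg differed by -2.50 or -5.23 without fibroblast replicate 1 or 2. The 5 lower growth factor genes became 1 without homogenate replicate 1 or 2 and 3 without myofibroblast replicate 1 or 2.

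The BMP and TGF-beta family, which restrains and shapes growth, had 18 of 29 tested genes higher and 4 lower. The ligands Bmp3, Bmp4 and Bmp5 differed by 1.97, 1.97 and 2.21, and Tgfb3 read 10.5 and 13.4 in fibroblasts against 1.68 and 2.16 in homogenates (2.64 ± 0.27, adjusted p = 0.00221). Antagonists rose beside them: Nbl1 (DAN), Chrdl1 (chordin-like 1) and Bmper differed by 3.01, 2.76 and 3.3. Bmp6 went the other way at 0.13 and 0.147 in fibroblasts against 5.42 and 4.93 in homogenates (-5.23 ± 0.26, adjusted p = 0.000235), so that ligands of 1 family lay on both sides. The co-receptor Tgfbr3 (betaglycan) was higher by 1.85, and Acvrl1 (ALK1), an endothelial receptor, read 0.855 and 4.98 in fibroblasts against 11.4 and 10.9 in homogenates with the fibroblast arrays far apart and no call (adjusted p = 0.0962). Second probes of Bmp3 and Chrdl1 differed by 1.63 and 1.99 and were not called. The calls of Bmp3, Bmp4, Bmp5 and Tgfbr3 ended without homogenate replicate 1 or 2, and of Nbl1 without homogenate replicate 2 (largest adjusted p = 0.102). Bmper also lost its call with array weights. The 18 higher BMP and TGF-beta genes became 9 without homogenate replicate 1 and 6 without homogenate replicate 2. The 4 lower ones became 1 without homogenate replicate 1 or 2.

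In the hedgehog pathway the ligands come from epithelium and endothelium and the responding cells are fibroblasts. Of 13 genes tested 7 were higher and 1 lower. The lower gene was the ligand Dhh (desert hedgehog), at 0.00997 and 0.00987 in fibroblasts against 0.319 and 0.371 in homogenates, at least 8.02-fold lower, while Shh (sonic hedgehog) was not well above background on any of the 4 arrays. Gli1, a transcription factor and standard target of the pathway, read 5.3 and 2.32 in fibroblasts against 0.267 and 0.363 in homogenates (3.49 ± 0.44, adjusted p = 0.00447). Gli2 was at least 7.05-fold higher. Hhip, which binds and blocks the ligands, read 11.3 and 5.43 in fibroblasts against 1.15 and 1.08 in homogenates (2.82 ± 0.40, adjusted p = 0.00633), and the co-receptors Gas1 and Boc differed by 3.01 and 1.37. The receptor Ptch1 read 0.722 and 4.37 in fibroblasts against 1.16 and 2.07 in homogenates without a call on its brightest probe (adjusted p = 0.900), and another of its probes was called higher by 1.63. The calls of Hhip ended without homogenate replicate 2, and of Boc without homogenate replicate 1 or 2 or fibroblast replicate 1 (largest adjusted p = 0.193). Boc also lost its call with array weights. Gli1 differed by 2.90 or 4.09 without fibroblast replicate 1 or 2. The 7 higher hedgehog genes became 4 without homogenate replicate 2.

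Wnt ligands and modulators had 10 of 27 tested genes higher and 2 lower. Wnt2, a lung mesenchyme ligand, read 1.97 and 0.915 in fibroblasts against 0.275 and 0.154 in homogenates (2.71 ± 0.50, adjusted p = 0.0155), and Wnt9a read 3.76 and 1.29 in fibroblasts against 0.152 and 0.264 in homogenates (3.46 ± 0.58, adjusted p = 0.0116). Rspo2 (R-spondin 2), which amplifies Wnt signals, was at least 3.03-fold higher, and Dkk3, a secreted modulator, differed by 2.52. Wnt5a read 5.02 and 7.84 in fibroblasts against 3.64 and 3.91 in homogenates without a call (adjusted p = 0.161), although another of its probes was called higher by 3.19. Wnt11 and Sfrp1 (a secreted Wnt antagonist) read 2.9 and 0.757 in fibroblasts against 0.45 and 0.589 in homogenates and 0.277 and 1.03 in fibroblasts against 0.12 and 0.157 in homogenates, without calls (adjusted p = 0.165 and adjusted p = 0.0865). The calls of Wnt2 ended without homogenate replicate 2, and of Wnt9a without homogenate replicate 1 (largest adjusted p = 0.104). Wnt2 also lost its call with array weights. Wnt9a differed by 2.69 or 4.23 without fibroblast replicate 1 or 2. The 10 higher Wnt genes became 5 without homogenate replicate 1 or 2. The 2 lower ones became 1 without homogenate replicate 1 or 2 or myofibroblast replicate 1 or 2.

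Receptor genes lay on both sides. Of 37 tested, 16 were higher and 7 lower. Ednra, the endothelin receptor of mesenchyme, read 11.4 and 3.85 in fibroblasts against 0.818 and 0.785 in homogenates (3.05 ± 0.52, adjusted p = 0.0125), whereas Ednrb, which capillary endothelium carries, read 0.114 and 0.0694 in fibroblasts against 8.21 and 6.73 in homogenates (-6.39 ± 0.37, adjusted p = 0.000376). Lpar1, the lysophosphatidic acid receptor of fibroblasts, read 6.68 and 5.68 in fibroblasts against 0.879 and 0.878 in homogenates (2.81 ± 0.24, adjusted p = 0.00122), whereas S1pr1, the sphingosine phosphate receptor of endothelium and lymphocytes, read 0.182 and 0.139 in fibroblasts against 12.7 and 11.6 in homogenates (-6.25 ± 0.27, adjusted p = 0.000182). Within each of these pairs of relatives the calls had opposite signs. Il1r1 (the interleukin 1 receptor) and Ghr (the growth hormone receptor) were higher by 2.47 and 1.27, and Npr3, a clearance receptor for natriuretic peptides, was lower, at -1.41. Second probes of Lpar1, Ghr and Npr3 differed by 2.20, 0.83 and -1.23 and were not called, and another probe of Ednrb was called lower, at -4.69. The calls of Ednra and Npr3 ended without homogenate replicate 1 or 2, and of Ghr without homogenate replicate 1 or 2 or fibroblast replicate 1 or myofibroblast replicate 1 or 2 (largest adjusted p = 0.209). Ghr also lost its call with array weights. Ednra differed by 2.27 or 3.84 without fibroblast replicate 1 or 2. The 16 higher receptor genes became 7 without homogenate replicate 1 and 6 without homogenate replicate 2. The 7 lower ones became 3 without homogenate replicate 1 or 2.

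Axon guidance genes, which also steer vessels and epithelium, had 8 of 30 tested higher and 8 lower. Slit3, a secreted repellent, read 23.5 and 22.9 in fibroblasts against 2.76 and 2.59 in homogenates (3.12 ± 0.26, adjusted p = 0.00104), and its receptor Robo1 read 4.11 and 1.46 in fibroblasts against 0.293 and 0.274 in homogenates (3.11 ± 0.51, adjusted p = 0.0110). Slit2 and Sema3d differed by 2.75 and 3.2, and Robo2 was at least 6.95-fold higher. Robo4, the endothelial member of the Robo family, was at least 161-fold lower, and Efnb2 (ephrin B2), of arterial endothelium, read 1.06 and 0.601 in fibroblasts against 14.1 and 12.8 in homogenates (-4.07 ± 0.35, adjusted p = 0.00115). Genes best known from neurons showed 5 of 25 tested higher, with Dner first among them, and 2 lower, L1cam and Stmn2, at least 25.6-fold and 209-fold. Another probe of L1cam was called lower, at -4.07. The calls of Robo1 and Slit2 ended without homogenate replicate 1 or 2, and of Sema3d without homogenate replicate 2 (largest adjusted p = 0.0856). Robo2 also lost its call with array weights. Robo1 differed by 2.37 or 3.86 and Slit2 by 2.10 or 3.40 without fibroblast replicate 1 or 2. The 8 higher guidance genes became 4 without homogenate replicate 1 or 2. The 8 lower ones became 5 without homogenate replicate 1 or 2.

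Transcription factors of mesenchyme were higher in 24 of 36 tested, and none was lower, with a median of 1.96. Prrx1, a homeodomain factor of connective tissue, read 5.77 and 7.58 in fibroblasts against 0.64 and 0.638 in homogenates (3.37 ± 0.26, adjusted p = 0.000832), Twist2 read 1.67 and 1.27 in fibroblasts against 0.0739 and 0.0763 in homogenates (4.28 ± 0.37, adjusted p = 0.00124), and Meox2 read 6.81 and 3.51 in fibroblasts against 0.462 and 0.388 in homogenates (3.53 ± 0.37, adjusted p = 0.00242). The lung mesenchyme factor Tbx4 differed by 2.42, Snai2 by 2.01 and Osr1 by 3.14. Twist1 and Snai1 were at least 6.15-fold and 7.82-fold higher. Tcf21, a factor used to mark alveolar fibroblasts, read 3.09 and 9.4 in fibroblasts against 2.07 and 1.88 in homogenates, above the homogenates on both arrays but with the fibroblast arrays 3.04-fold apart and no call (adjusted p = 0.125). Foxf1, which endothelium expresses as well, read 17.8 and 6.26 in fibroblasts against 21.4 and 19.7 in homogenates and was not called (adjusted p = 0.279). The calls of Tbx4 and Snai2 ended without homogenate replicate 1 or 2, and of Osr1 without homogenate replicate 2, and of Snai1 without homogenate replicate 2 or fibroblast replicate 1 (largest adjusted p = 0.100). Osr1 and Snai1 also lost their calls with array weights. Tbx4 differed by 1.83 or 3.01 without fibroblast replicate 1 or 2. The 24 higher mesenchyme factors became 9 without homogenate replicate 1 or 2. The 0 lower ones became 3 without fibroblast replicate 1.

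Factors of other lineages were lower. Of 17 epithelial factors tested 12 were lower and none higher, and of 15 endothelial factors 13 were lower and 1 higher. Nkx2-1, the factor of lung epithelium, read 0.076 and 0.0825 in fibroblasts against 1.62 and 1.64 in homogenates (-4.36 ± 0.23, adjusted p = 0.000290), and Foxj1, the factor of ciliated cells, was at least 38.1-fold lower. Sox18, of endothelium, was at least 36.3-fold lower. Epas1 (HIF-2 alpha), which capillary endothelium expresses at a high level, read 10.8 and 6.0 in fibroblasts against 200.2 and 201 in homogenates (-4.64 ± 0.36, adjusted p = 0.000898) and stayed measurable in the fibroblasts. The 1 higher endothelial factor became 0 without homogenate replicate 1 or 2.

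Enzymes that act on drugs and hormones were higher in 12 of 24 tested and lower in 5. Cyp1b1, a cytochrome P450 of mesenchyme, read 5.15 and 3.37 in fibroblasts against 0.258 and 0.215 in homogenates (4.14 ± 0.50, adjusted p = 0.00382), and Aox1 (aldehyde oxidase) read 6.12 and 2.57 in fibroblasts against 0.579 and 0.506 in homogenates (2.87 ± 0.45, adjusted p = 0.00942). Cyp2f2, the P450 of club cells, read 1.67 and 0.835 in fibroblasts against 30.2 and 28.1 in homogenates (-4.63 ± 0.57, adjusted p = 0.00401), and Cyp4b1, of airway and alveolar epithelium, read 0.297 and 0.271 in fibroblasts against 22.2 and 22.8 in homogenates (-6.31 ± 0.51, adjusted p = 0.00101). The P450 genes therefore lay on both sides, by family member. Fmo2, a flavin monooxygenase of lung, was higher by 1.4, and Gstm1, a glutathione transferase, read 7.63 and 59.8 in fibroblasts against 23.8 and 21.4 in homogenates with the fibroblast arrays 7.84-fold apart (adjusted p = 0.963), while another of its probes was called higher by 1.32. The calls of Aox1 ended without homogenate replicate 1 or 2, and of Fmo2 without homogenate replicate 1 or 2 or fibroblast replicate 1 (largest adjusted p = 0.174). Fmo2 also lost its call with array weights. Aox1 differed by 2.25 or 3.50 without fibroblast replicate 1 or 2. The 12 higher enzymes became 4 without homogenate replicate 1 and 3 without homogenate replicate 2. The 5 lower ones became 3 without homogenate replicate 1 and 8 without fibroblast replicate 2.

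Complement, the plasma cascade that tags microbes and debris, was mixed. Of 19 genes listed 17 were tested, 9 were higher and 5 lower. C3, the central component, read 276 and 182 in fibroblasts against 42 and 37.1 in homogenates (2.51 ± 0.29, adjusted p = 0.00345), and C1s1, a protease of the first step, read 40.9 and 30 in fibroblasts against 4.02 and 4.19 in homogenates (3.09 ± 0.27, adjusted p = 0.00132). C4b and C7 differed by 3.23 and 2.57. C1qa and C1qc, chains that macrophages make, and C5ar1, the receptor on myeloid cells, were lower: C1qa and C5ar1 at least 3.7-fold and 221-fold, and C1qc, at -6.07, with 1 fibroblast array above background. The calls of C1qa and C1qc ended without homogenate replicate 1, and of C7 without homogenate replicate 1 or 2 (largest adjusted p = 0.0696). C1qa also lost its call after normexp background correction. C1qc differed by -4.73 or -7.42 without fibroblast replicate 1 or 2. The 5 lower complement genes became 1 without homogenate replicate 1 and 3 without homogenate replicate 2.

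Chemokines and cytokines had 10 of 32 tested genes higher and 12 lower. Il6 (interleukin 6) read 30.1 and 11.9 in fibroblasts against 2.65 and 2.77 in homogenates (2.8 ± 0.47, adjusted p = 0.0116), Il33, an alarm cytokine, read 6.2 and 3.3 in fibroblasts against 1.14 and 1.08 in homogenates (2.03 ± 0.35, adjusted p = 0.0134), and Cxcl14 read 32.2 and 16.5 in fibroblasts against 3.69 and 3.39 in homogenates (2.71 ± 0.37, adjusted p = 0.00567). All 3 were higher on both arrays. Cxcl1 and Ccl2, which draw neutrophils and monocytes, differed by 2.21 and 1.48. Ccl6, a macrophage chemokine, was at least 1322-fold lower, and Il1b read 0.0785 and 0.0538 in fibroblasts against 12.9 and 17.7 in homogenates, above background on 1 fibroblast array. Cxcl12, a stromal chemokine, read 14.2 and 5.52 in fibroblasts against 31.3 and 26.6 in homogenates on its brightest probe without a call (adjusted p = 0.0605), while another of its probes was called higher by 3.53. Second probes of Cxcl14 and Il33 differed by -0.11 and 0.81 and were not called. The calls of Il6 and Il33 ended without homogenate replicate 1 or 2, and of Cxcl14 without homogenate replicate 2, and of Cxcl1 without homogenate replicate 1, and of Ccl2 without homogenate replicate 1 or 2 or myofibroblast replicate 1 or 2 (largest adjusted p = 0.177). Il6 differed by 2.13 or 3.47 without fibroblast replicate 1 or 2. The 10 higher chemokine and cytokine genes became 2 without homogenate replicate 1 and 3 without homogenate replicate 2.

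**Figure D2:**
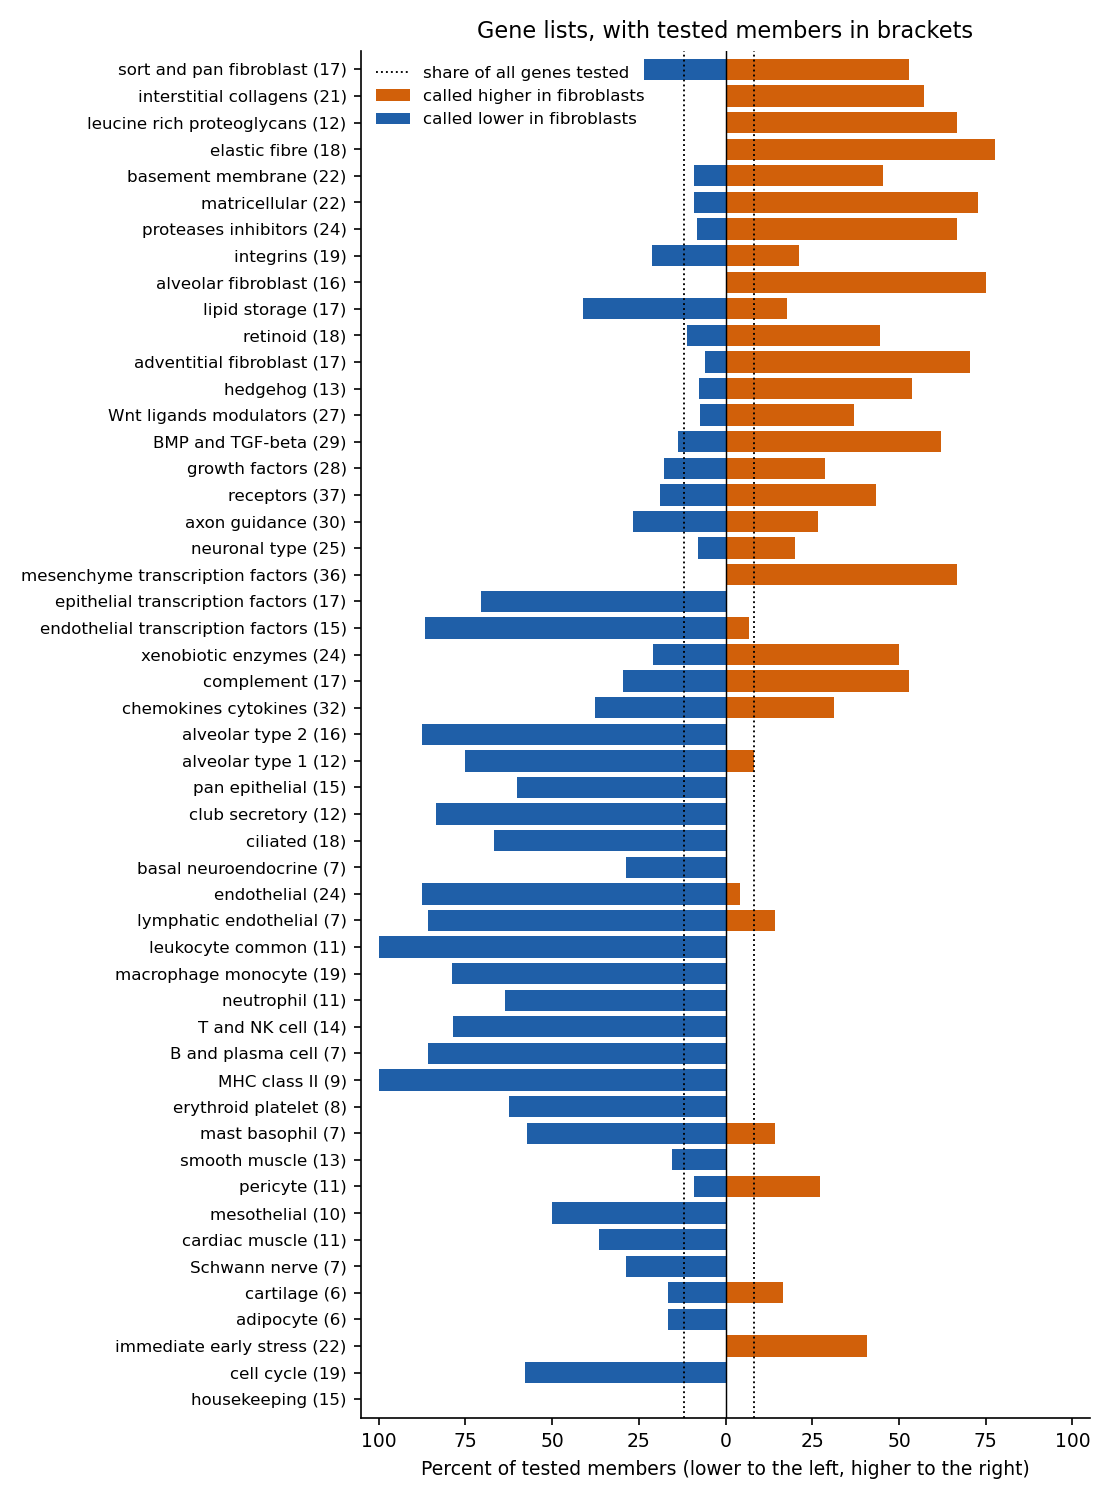
Percent of the tested members of each of 51 gene lists called higher (right) or lower (left) in fibroblasts, with the number tested in brackets and dotted lines at the shares of all genes tested, 8.19% and 11.9%. The 6 matrix lists and the mesenchyme factors extend mainly to the right, and lists of epithelium, endothelium and blood cells mainly to the left. Lipid storage genes extend mainly to the left, at 41.2% lower and 17.6% higher, the sort and pan-fibroblast markers reach both ways, at 52.9% higher and 23.5% lower, and housekeeping genes show no bar.

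Alveolar epithelium was depleted. Of 16 type 2 genes tested 14 were lower and none higher, with a median of -5.13. Sftpc, the surfactant protein of type 2 cells, read 1.01 and 0.99 in fibroblasts against 164 and 167 in homogenates, a difference of -7.37 ± 0.23 (adjusted p = 0.000117), and Slc34a2, their phosphate transporter, read 0.0709 and 0.271 in fibroblasts against 26.3 and 27.1 in homogenates (-7.59 ± 0.84, adjusted p = 0.00277). Of the surfactant genes Sftpb and Sftpd, well above background on 1 fibroblast array each, differences were -6.93 and -7.29. Abca3, the lamellar body lipid transporter, read 0.192 and 0.108 in fibroblasts against 0.488 and 0.462 in homogenates and was not called (adjusted p = 0.215). In the fit of the 4 compared arrays alone Abca3 was called lower, at the same difference of -1.73. Of 12 type 1 genes tested 9 were lower and 1 higher. Ager, the receptor that marks type 1 cells, read 1.39 and 1.79 in fibroblasts against 50.5 and 47.6 in homogenates (-4.96 ± 0.31, adjusted p = 0.000469). Of 4 other Ager probes, all called lower, 3 differed by less, at -2.16, -2.55 and -2.78. The higher type 1 gene was Pdpn (podoplanin), a type 1 marker that mesenchyme also carries, at 16.8 and 8.59 in fibroblasts against 2.69 and 2.72 in homogenates (2.15 ± 0.37, adjusted p = 0.0129). Summed over the members with a probe, the relative signal of the type 2 list was 17.4 and 11.8 in fibroblasts and 311 and 312 in homogenates. The calls of Sftpb and Pdpn ended without homogenate replicate 1 or 2 (largest adjusted p = 0.0906). Slc34a2 differed by -6.62 or -8.56, Sftpb by -8.50 or -5.37 and Sftpd by -8.32 or -6.26 without fibroblast replicate 1 or 2. The 14 lower type 2 genes became 9 without homogenate replicate 1 or 2. The 1 higher type 1 gene became 0 without homogenate replicate 1 or 2.

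Airway epithelial genes were lower to differing depths. Of 12 club and secretory genes 10 were lower, of 18 ciliated genes 12 and of 15 pan-epithelial genes 9, with none higher in these lists. Scgb1a1, the secretoglobin of club cells, read 118 and 69 in fibroblasts against 614 and 602 in homogenates (-2.75 ± 0.37, adjusted p = 0.00559), and Scgb3a2 read 3.87 and 3.76 in fibroblasts against 45.8 and 43.7 in homogenates (-3.55 ± 0.23, adjusted p = 0.000493). These secretory transcripts stayed well above background in the sorted cells, and their part in other results was not tested. Epcam, the adhesion molecule of epithelium, read 0.0654 and 0.0567 in fibroblasts against 1.93 and 2.2 in homogenates (-5.08 ± 0.25, adjusted p = 0.000237), and Cdh1 (E-cadherin) was at least 7.17-fold lower, with neither fibroblast array above background. Dnah5, a dynein of cilia, read 0.101 and 0.11 in fibroblasts against 2.55 and 2.87 in homogenates (-4.68 ± 0.32, adjusted p = 0.000592), and Krt19 was at least 89.7-fold lower. Cldn7 and Esrp1 read 1.51 and 1.42 in fibroblasts against 1.61 and 1.69 in homogenates and 0.889 and 0.759 in fibroblasts against 1.0 and 1.01 in homogenates without calls (adjusted p = 0.651 and adjusted p = 0.552), and another probe of Esrp1 was called lower, at a difference of -2.15. Of 8 basal and neuroendocrine genes 7 were tested and 2 were lower, Krt15 and Calca. The summed relative signal of the ciliated list did not follow its calls, at 353 and 301 in fibroblasts and 322 and 347 in homogenates, most of it from 1 uncalled gene, Mcidas, at 345 and 294 in fibroblasts against 288 and 311 in homogenates. The calls of Krt15 ended without homogenate replicate 1 or 2 or fibroblast replicate 1 or myofibroblast replicate 1 or 2, and of Calca without homogenate replicate 1 or 2 or fibroblast replicate 1 or 2 (largest adjusted p = 0.261). Krt15 also lost its call after quantile normalization, after median scaling, after normexp background correction, with no filter on dim probes, with a robust variance trend and with array weights. Calca also lost its call after quantile normalization, after median scaling, after normexp background correction, with no filter on dim probes, with a robust variance trend and with array weights. The 2 lower basal and neuroendocrine genes became 0 without homogenate replicate 1 or 2 or fibroblast replicate 1 and 1 without fibroblast replicate 2.

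Endothelial genes were depleted. Of 24 endothelial genes, all tested, 21 were lower and 1 higher, with a median of -6.37. Cldn5, the tight junction protein of endothelium, read 0.0489 and 0.0741 in fibroblasts against 16.8 and 16.1 in homogenates (-8.09 ± 0.29, adjusted p = 0.000140), and Vwf (von Willebrand factor) read 0.196 and 0.138 in fibroblasts against 17.6 and 19.4 in homogenates (-6.81 ± 0.40, adjusted p = 0.000405). Kdr, the main receptor for VEGF, was at least 137-fold lower, Tie1 at least 110.2-fold and Egfl7 at least 442-fold. Of the adhesion molecules Pecam1 and Cdh5, each above background on 1 fibroblast array, differences were -7.67 and -9.27. The higher gene was Cd34, which fibroblasts carry as well. Tek, the receptor of angiopoietins, read 1.37 and 1.07 in fibroblasts against 4.77 and 4.07 in homogenates without a call (adjusted p = 0.326). In the fit of the 4 compared arrays alone Tek was called lower, at the same difference of -1.86. Of 7 lymphatic genes 6 were lower, with Lyve1 at least 126-fold, and Pdpn was the 1 higher. The summed relative signal of the endothelial list was 29.2 and 32.7 in fibroblasts and 241 and 227 in homogenates. Cdh5 differed by -10.40 or -8.14 without fibroblast replicate 1 or 2. The 1 higher endothelial gene became 0 without homogenate replicate 1 or 2. The 1 higher lymphatic gene became 0 without homogenate replicate 1 or 2.

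Leukocyte genes were lower in the fibroblasts. All 11 common leukocyte genes tested were lower, 5 of them without a fibroblast array well above background, and the 4 defining ones, Ptprc, Coro1a, Laptm5 and Cd52, were not well above background on either fibroblast array. Ptprc (CD45), the surface phosphatase of leukocytes, read 0.0084 and 0.00971 in fibroblasts against 23.4 and 23.7 in homogenates, at least 549-fold lower. Tyrobp, a signalling adaptor of myeloid and natural killer cells, was at least 1373-fold lower. Another probe of Ptprc differed by -7.40. Lcp1 (L-plastin), an actin bundling protein of leukocytes, stayed measurable at 0.235 and 0.217 in fibroblasts against 54.8 and 66.9 in homogenates (-8.07 ± 0.40, adjusted p = 0.000246). The summed relative signal of this list was 5.8 and 7.78 in fibroblasts and 222 and 246 in homogenates. The call of Cd52 ended without homogenate replicate 2, where the log2 difference was -7.41.

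Of 19 macrophage and monocyte genes 15 were lower and none higher. Chil3, a chitinase-like protein of alveolar macrophages, read 0.026 and 0.0154 in fibroblasts against 194 and 195 in homogenates and was at least 4534-fold lower, the largest bound of any gene named here. Marco, a scavenger receptor of alveolar macrophages, read 0.111 and 0.107 in fibroblasts against 67.9 and 71.4 in homogenates (-9.32 ± 0.64, adjusted p = 0.000602), and Lyz2 (lysozyme) was at least 215-fold lower. Csf1r, the receptor for macrophage growth factor, read 18.6 and 24.4 in fibroblasts against 20.9 and 21.9 in homogenates on its brightest probe without a call, but another of its probes was called lower, at a difference of -3.95. A bright probe with the same reading in both groups was also seen for Csf3r, a neutrophil receptor, at 169 and 227 in fibroblasts against 184 and 188 in homogenates, and for Mcam at 481 and 487 in fibroblasts against 460.0 and 496 in homogenates. Of 11 neutrophil genes tested 7 were lower, with S100a9 at least 932-fold. Of 14 T and natural killer cell genes 11 were lower, and Cd3e read 0.413 and 0.427 in fibroblasts against 1.97 and 2.16 in homogenates (-2.3 ± 0.23, adjusted p = 0.00200). Another probe of Cd3e was called lower by more, at -6.02. Of 7 B and plasma cell genes 6 were lower, with Cd79b at least 11.3-fold. The 11 lower T and natural killer cell genes became 7 without homogenate replicate 2.

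All 9 genes of MHC class II antigen presentation were tested and were lower. H2-Ab1, a class II chain, read 0.0697 and 0.081 in fibroblasts against 24.8 and 24.6 in homogenates (-8.36 ± 0.67, adjusted p = 0.000965), and H2-Aa was at least 175-fold lower. Both read alike on the 2 arrays of each group. Of 8 red cell and platelet genes tested (13 listed) 5 were lower. Hba-a1, an alpha globin, read 0.138 and 0.252 in fibroblasts against 38.3 and 21.6 in homogenates (-7.27 ± 0.46, adjusted p = 0.000483), and Hbb-bt, a beta globin, was at least 163-fold lower. The 5 lower red cell and platelet genes became 3 without homogenate replicate 1 or 2.

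Other contractile and mural cells were less clearly separated. Of 13 smooth muscle genes tested (15 listed) 2 were lower and none higher. Myh11, the smooth muscle myosin heavy chain, read 0.774 and 0.715 in fibroblasts against 6.45 and 9.47 in homogenates (-3.39 ± 0.31, adjusted p = 0.00144), and Cnn1 (calponin) was lower, at -1.85. Acta2 (smooth muscle actin) read 9.79 and 24.4 in fibroblasts against 28.2 and 30.3 in homogenates, with both fibroblast values below the homogenates but 2.49-fold apart and no call (adjusted p = 0.238). Of 11 pericyte genes 3 were higher and 1 lower: Kcnj8 and Abcc9, subunits of a potassium channel, differed by 3.57 and 3.65, beside Pdgfrb, whereas Higd1b read 0.417 and 0.477 in fibroblasts against 2.1 and 2.18 in homogenates (-2.26 ± 0.23, adjusted p = 0.00224) and Cspg4 (NG2) was not called (adjusted p = 0.368). Another probe of Cnn1, at -1.77, was not called. The calls of Cnn1 and Abcc9 ended without homogenate replicate 1 or 2 (largest adjusted p = 0.0695). The 2 lower smooth muscle genes became 1 without homogenate replicate 1 or 2 and 5 without fibroblast replicate 2. The 0 higher ones became 2 without fibroblast replicate 1 and 1 without fibroblast replicate 2. The 3 higher pericyte genes became 1 without homogenate replicate 1 or 2. The 1 lower pericyte gene became 2 without fibroblast replicate 2.

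Of 10 mesothelial genes tested (12 listed) 5 were lower. Msln (mesothelin) and Upk3b (uroplakin 3B) were at least 22.7-fold and 14.3-fold lower, and Wt1, a factor of mesothelium, read 0.912 and 0.324 in fibroblasts against 1.27 and 1.24 in homogenates without a call (adjusted p = 0.190). Of 11 heart muscle genes tested 4 were lower, among them Actc1 at 0.154 and 0.258 in fibroblasts against 1.93 and 2.71 in homogenates (-3.52 ± 0.35, adjusted p = 0.00197). Of 6 cartilage genes tested (11 listed) 1 was higher: Col2a1, the cartilage collagen, read 12 and 10.1 in fibroblasts against 1.61 and 1.52 in homogenates (2.82 ± 0.24, adjusted p = 0.00118). Chad (chondroadherin) was the 1 lower, at -2.48. Of 7 nerve sheath genes 2 were lower, Mbp and Erbb3, and of 6 fat cell genes 1, Cidec, at least 193-fold. Of 7 mast cell and basophil genes 4 were lower and 1 higher. Mcpt8, a basophil protease, was at least 10.5-fold lower, and Cpa3, a mast cell protease, read 0.269 and 0.15 in fibroblasts against 0.070 and 0.0772 in homogenates (1.45 ± 0.34, adjusted p = 0.0357). Among other probes of Mbp, differences were -1.09 and -0.31, without calls. The calls of Mbp and Erbb3 ended without homogenate replicate 1 or 2, and of Cpa3 without homogenate replicate 1 or 2 or myofibroblast replicate 1 or 2 (largest adjusted p = 0.200). Cpa3 also lost its call after normexp background correction, with no filter on dim probes, with a robust variance trend and with a replicate block. The 0 higher mesothelial genes became 1 without fibroblast replicate 2. The 1 higher cartilage gene became 2 without fibroblast replicate 1 or 2. The 1 lower fat cell gene became 2 without fibroblast replicate 1. The 2 lower nerve sheath genes became 0 without homogenate replicate 1 or 2. The 4 lower mast cell and basophil genes became 2 without fibroblast replicate 1. The 1 higher one became 0 without homogenate replicate 1 or 2 or myofibroblast replicate 1 or 2.

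**Figure D3:**
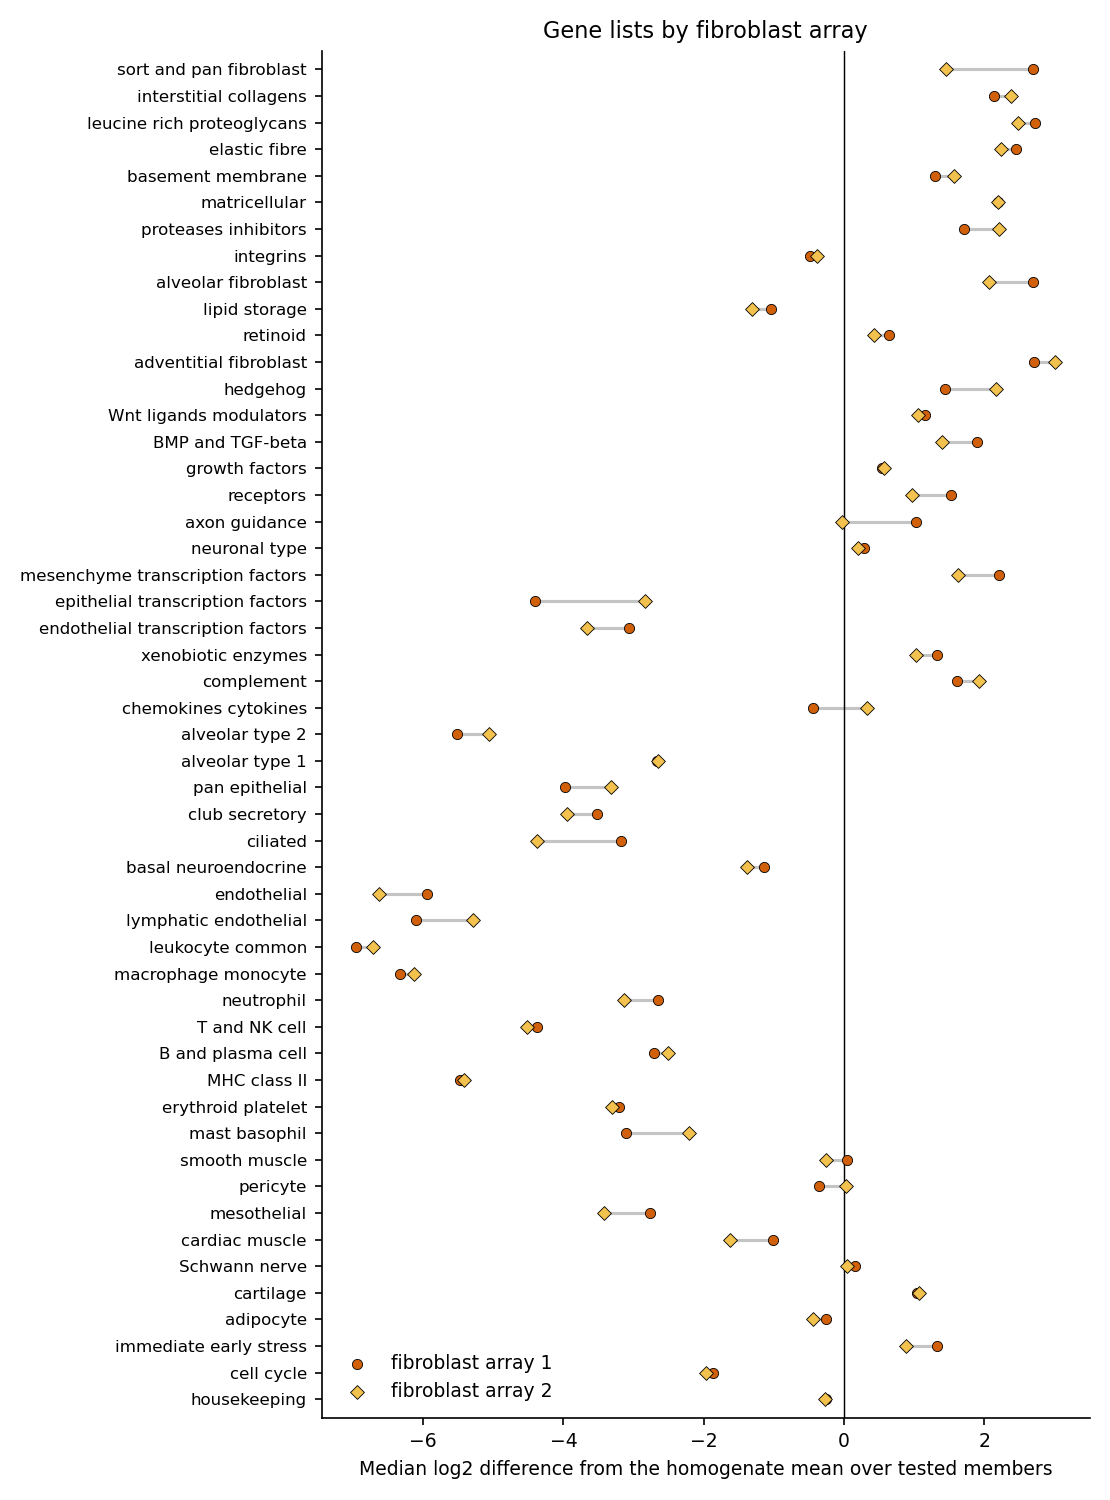
Median log2 difference over the tested members of each list, for each fibroblast array (circle, array 1, and diamond, array 2) from the mean of the homogenates. For interstitial collagens the medians were 2.14 and 2.38 and for endothelial genes -5.94 and -6.63. The arrays lay on opposite sides of 0 for axon guidance genes, at 1.02 and -0.03, for chemokines and cytokines, at -0.44 and 0.32, for smooth muscle genes, at 0.04 and -0.26, and for pericyte genes, at -0.36 and 0.03.

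Immediate early and stress genes, which respond within minutes to handling and warming of tissue, were in part higher in the sorted cells. All 22 were tested, and 9 were called higher and none lower, with a median of 1.09. Fos read 72.9 and 42.8 in fibroblasts against 19.6 and 17.4 in homogenates (1.6 ± 0.34, adjusted p = 0.0263), Egr1 read 565 and 487 in fibroblasts against 209.6 and 209 in homogenates (1.33 ± 0.24, adjusted p = 0.0149), and Nr4a1 read 49.1 and 54.8 in fibroblasts against 12.8 and 13.9 in homogenates (1.96 ± 0.24, adjusted p = 0.00394). The homogenates also read these genes well above background. Jun, Junb and Atf3 read 7.36 and 14.3 in fibroblasts against 7.99 and 6.66 in homogenates, 236 and 244 in fibroblasts against 217 and 235 in homogenates and 5.26 and 4.79 in fibroblasts against 3.05 and 2.81 in homogenates, and none of them was called. The summed relative signal of the list was 1959.6 and 1787 in fibroblasts and 1118 and 1152 in homogenates, and its part in the other differences was not tested. The calls of Fos ended without homogenate replicate 1 or 2 or myofibroblast replicate 1 or 2, and of Egr1 without homogenate replicate 1 or 2, and of Nr4a1 without homogenate replicate 1 (largest adjusted p = 0.175). The 9 higher immediate early genes became 1 without homogenate replicate 1, 2 without homogenate replicate 2 and 4 without myofibroblast replicate 1 or 2. The 0 lower ones became 2 without fibroblast replicate 2.

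Genes of cell division were lower in 11 of 19 tested (21 listed), and none was higher. Mki67, a marker of cycling cells, read 0.241 and 0.186 in fibroblasts against 1.54 and 1.35 in homogenates (-2.77 ± 0.26, adjusted p = 0.00172), and Top2a, the topoisomerase of dividing cells, was at least 10.3-fold lower on its brightest probe and called lower by another, at -1.63. Of 15 housekeeping genes tested, none was called in either direction, with a median of -0.26. Gapdh read 23.3 and 35.9 in fibroblasts against 64.4 and 62.1 in homogenates (adjusted p = 0.0504), Actb read 13.3 and 24.5 in fibroblasts against 31.4 and 28.6 in homogenates (adjusted p = 0.231), and Ppia read 68.5 and 48.5 in fibroblasts against 64.1 and 63 in homogenates (adjusted p = 0.769). For Ppia the groups overlapped, whereas for Gapdh and Actb both fibroblast values lay below the homogenates. The 11 lower cell division genes became 6 without homogenate replicate 1 or 2 and 7 without myofibroblast replicate 1 or 2. The 0 lower housekeeping genes became 3 without fibroblast replicate 2.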

How the data were processed

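Total RNA of sorted lung cells and lung homogenates was labelled with Cy3 and hybridised to Agilent 1-colour arrays, 1 per sample, per the labels' protocols. The deposited spot intensity is the processed signal of Agilent Feature Extraction 12.0.3.1, per the file headers and the submitters' processing notes; RNA extraction is not described in the labels. The authors' deposited table of the same arrays was the processed intensity multiplied by 1 constant per array (99.96% or more of probes within 1%), and served as an alternative. Spots with a deposited outlier flag were left out of the probe values. The deposited background flag decided which genes were tested, and saturated spots were only counted. The log2 of each intensity was taken relative to the array's 75th percentile (230.2 to 282 signal units over the 4 arrays).

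From the 56605 probes, 32994 carried a gene name, and the probe brightest on average over all 6 arrays was kept for each gene. A gene was tested where that probe stood well above background across the whole pair of either group. R 4.3.3 and limma 3.58.1 (lmFit, eBayes) fitted the 3 groups of all 6 arrays without a replicate block, which left 3 residual and 2.59 prior degrees of freedom, and p-values were adjusted by Benjamini-Hochberg, with a call at adjusted p under 0.05. Errors after ± are standard errors of the log2 difference, with n = 2 arrays per group. "At least N-fold" sets the brighter group's mean against the dimmer group's mean of, per array, the higher of the lowest signal among probes well above background and the dim probe's own. The number of arrays limits the precision.

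Named genes were the sort markers, the largest differences and largest bounded differences each way, the defining members of 51 gene lists and the 2 most changed called members of each list, without predicted genes. Some genes that this rule named are not reported here. The genes compared and the lists were chosen with earlier results of these data known, and Xist, Uty, Eif2s3y, Sly, Sry, Gm20877 and Mcidas were added with their values in view. Other settings tried were quantile normalization, median scaling, the deposited table, normexp background correction (on median spot signals, offset 50), other filters and probe rules, other fits and thresholds, and leaving out each array. A fit of the 4 arrays alone is the same test as leaving out 1 myofibroblast array, so these count as 1 check. Leaving out an array leaves 1 in its group, so a call can end with little change in the difference. Slide position was not modelled, since it coincides with the groups.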

Additional observations from a re-analysis of the deposited data

How the results depend on the processing

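No gene was called in the opposite direction under any alternative. The genes called, 1398 higher and 2027 lower, depended most on which array was left out: leaving out 1 array in turn gave 381 to 3193 higher and 1065 to 3047 lower. At an adjusted p under 0.01, 520 were higher and 1229 lower, and with the probe well above background on all 4 arrays 1208 were higher and 929 lower, so that 56.5% of calls were higher. Replicate numbers were shared by name alone (correlation of deviations between same-numbered fibroblast and homogenate arrays 0.019), and a replicate block gave 1284 higher and 1987 lower. Median scaling moved the median of all genes tested to 0.30 and the split to 1784 higher and 1731 lower, so that 50.8% of calls were higher in place of 40.8%. The alternatives chosen after seeing the data, without X-linked and Y-linked genes and without genes whose 2 fibroblast values lay more than 2-fold apart (1192 higher and 1642 lower), moved neither count by over 1.5 times. The cause of these changes was not tested, beyond the fewer arrays, the stricter threshold and the smaller set of genes that define them. Probes near background limit the genes called lower, 873 of which have only a bound.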
